A study of Mus musculus with 12 samples.

Results

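The kinases that phosphorylate eIF2alpha, the subunits of eIF2 and of its exchange factor eIF2B, and a targeting subunit of the eIF2alpha phosphatase were followed in mouse splenic T cells. The 10 genes named for this group were Eif2ak1, Eif2ak2, Eif2ak3, Eif2ak4, Eif2s1, Eif2s2, Ppp1r15b, Eif2b1, Eif2b4 and Eif2b5. A gene was taken when table entries lying over the exons of that gene alone, by at least 50 bp, held at least 10 counts over the 12 libraries. By that rule 2 of the 10 genes could be read, the PERK gene Eif2ak3 and the GCN2 gene Eif2ak4, among 5906 genes in all. Eif2ak3 held 641 and 923 counts on its 2 entries and Eif2ak4 held 1287, while Eif2ak1 lay just outside the rule with 0 counts on its entry. The other 7 names had no entry of their own. Apart from Ppp1r15b, over which no entry lay, they are described further on through entries shared with neighbouring genes.

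WT or PERK-cKO T cells on the C57BL/6 background were stimulated with allogeneic antigen presenting cells for 4 days or with anti-CD3 and anti-CD28 antibodies (polyclonal) for 3 days, with 3 libraries in each of the 4 groups. PERK-cKO mice carry PERK fl/fl alleles and CD4-Cre, which acts in cells that have expressed Cd4, and the labels call this genotype PERK-KO. The days are those of the deposited series description, and the sources differ on whether the polyclonal cultures were harvested on the same day as the allogeneic ones. If they were not, stimulus and day cannot be told apart. Also, any antigen presenting cells left in the allogeneic cultures would add to those libraries. Nothing in the sources says that the 3 libraries of a group came from separate mice, so p-values measure only the spread between libraries, which may be technical.

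When eIF2 carries its bound GTP it delivers the initiator tRNA to the ribosome, and eIF2B recharges it with GTP after each round. Each of the kinases answers its own stress, PERK to unfolded protein in the endoplasmic reticulum, GCN2 to amino acid shortage, PKR (Eif2ak2) to double-stranded RNA and HRI (Eif2ak1) to heme shortage, and all phosphorylate the same serine of eIF2alpha, which turns eIF2 into an inhibitor of eIF2B. Protein phosphatase 1, guided by Ppp1r15a (GADD34) or Ppp1r15b (CReP), removes the phosphate.

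The stretches behind both kinase readings are shown because the values below rest on them and not on whole transcripts. Eif2ak3 lies at chr6:70844515-70905245 on the plus strand of GRCm38, with 17 exons in the transcript used here. One entry, filed under the symbol Eif2ak3, covered 326 exon bases, among them 49 bp of exon 2 (chr6:70858468-70858516) and 235 bp of exon 5 (chr6:70881484-70881718), with 42 bp more in an exon of a shorter transcript. The other, filed under the symbol Tex37, covered 237 exon bases, 144 bp of exon 12 (chr6:70890071-70890214) and 93 bp of exon 13 (chr6:70892626-70892718). All 4 numbered stretches are coding. The 3 longest are printed 5′ to 3′ in lower case, from the GENCODE transcript sequences.
Eif2ak3 exon 5: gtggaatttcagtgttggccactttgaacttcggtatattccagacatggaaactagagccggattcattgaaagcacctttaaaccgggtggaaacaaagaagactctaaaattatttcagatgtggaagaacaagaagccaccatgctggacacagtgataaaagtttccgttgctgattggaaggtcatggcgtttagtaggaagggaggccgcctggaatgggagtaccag
Eif2ak3 exon 12: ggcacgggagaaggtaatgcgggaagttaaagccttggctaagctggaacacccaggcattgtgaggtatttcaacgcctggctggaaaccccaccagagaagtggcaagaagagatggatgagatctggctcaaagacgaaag
Eif2ak3 exon 13: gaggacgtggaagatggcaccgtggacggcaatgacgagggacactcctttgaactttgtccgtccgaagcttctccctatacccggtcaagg

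Eif2ak4 lies at chr2:118388618-118475234 on the plus strand, with 39 exons in the transcript used here. It was read from 1 entry, filed under the symbol Bub1b, which covered 98 bp of exon 19 (chr2:118443125-118443222), 141 bp of exon 21 (chr2:118448276-118448416), 135 bp of exon 29 (chr2:118462224-118462358) and 69 bp of exon 36 (chr2:118471890-118471958), all coding, with 74 bp in an exon of another transcript. The 2 longest of these are printed.
Eif2ak4 exon 21: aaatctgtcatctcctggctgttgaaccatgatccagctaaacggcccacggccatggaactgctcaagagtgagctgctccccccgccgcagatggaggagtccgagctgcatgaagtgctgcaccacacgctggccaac
Eif2ak4 exon 29: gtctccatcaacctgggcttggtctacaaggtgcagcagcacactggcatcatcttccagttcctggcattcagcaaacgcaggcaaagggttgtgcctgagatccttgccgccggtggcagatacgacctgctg

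**Figure D1:**
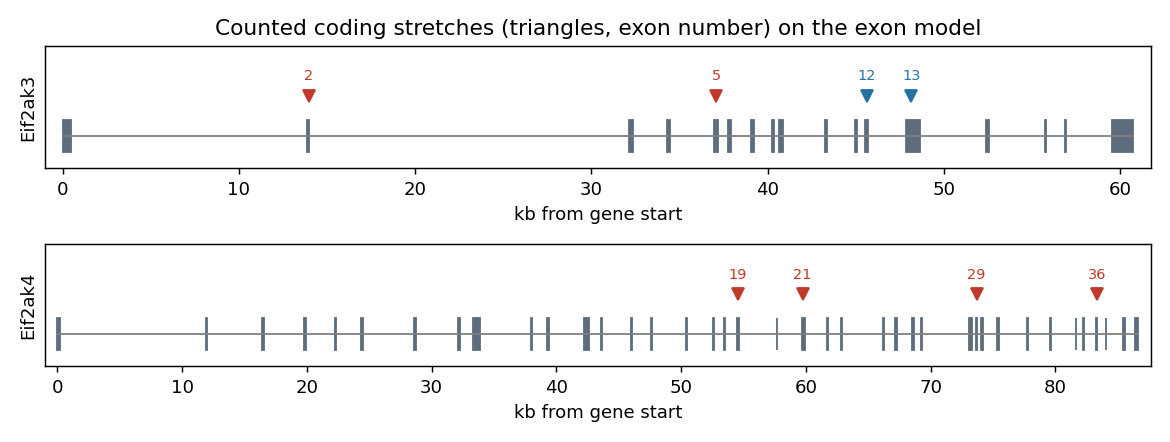
Exon models of Eif2ak3 and Eif2ak4 in kb from the gene start, with triangles and exon numbers over the counted coding stretches. For Eif2ak3, red marks the 326 bp entry and blue the 237 bp entry. The stretches sit in 4 of 17 exons of Eif2ak3 and 4 of 39 of Eif2ak4.

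Most bases of these entries lie outside exons. The entry with 326 exon bases is 6026 bp long, with 4137 bp between exons of Eif2ak3 and 1563 bp outside the gene. The entry with 237 exon bases is 814 bp long, with 577 bp between exons. The Eif2ak4 entry is 4275 bp long, with 3758 bp between exons of that gene. Counts are given per entry, so reads from exons and introns could not be separated. The sources do not say which exons the floxed allele removes, so the Eif2ak3 values are no check of the deletion.

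Eif2ak3 was highest in WT T cells after allogeneic stimulation. Placed counts were 169, 167 and 173 there, and 155, 140 and 121 in PERK-cKO T cells under the same stimulus. After polyclonal stimulation they were 152, 118 and 85 in WT and 116, 76 and 92 in PERK-cKO. Scaled to CPM (counts per 1000000 placed counts, library sizes adjusted by TMM factors), the means were 98.7 ± 7.40 in WT allogeneic, 70.3 ± 3.60 in PERK-cKO allogeneic, 61.0 ± 18.01 in WT polyclonal and 47.9 ± 2.93 in PERK-cKO polyclonal cells (SD, n = 3 each). On this scale the WT allogeneic libraries, from 91.5 to 106 CPM, lay above all others. The WT polyclonal libraries, from 44.2 to 80.0 CPM, overlapped both PERK-cKO groups.

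Eif2ak4 had nearly the opposite order. Placed counts were 47, 51 and 60 in WT and 96, 85 and 64 in PERK-cKO with the allogeneic stimulus, against 155, 174 and 147 in WT and 154, 109 and 145 in PERK-cKO with the polyclonal one. Mean levels were 30.4 ± 1.14, 41.0 ± 1.89, 81.6 ± 5.18 and 69.1 ± 4.86 CPM in the same order of groups (SD, n = 3 each). None of the 4 groups overlapped another on the CPM scale, with WT allogeneic lowest and WT polyclonal highest. The share of all genes with groups as separate as those of either kinase was not counted.

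**Figure D2:**
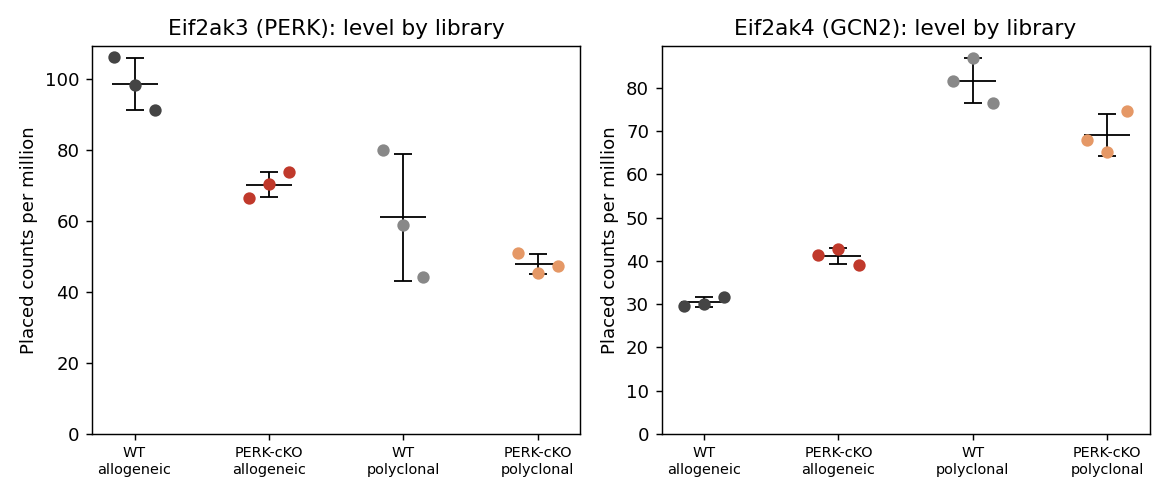
Levels of Eif2ak3 and Eif2ak4 in placed CPM for each of the 12 libraries, with the group mean (line) and SD (bar). The 3 WT allogeneic libraries are the highest for Eif2ak3 and the lowest for Eif2ak4.

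After allogeneic stimulation, Eif2ak3 was lower in PERK-cKO than in WT T cells, by 1.40-fold. The log2 fold change was −0.49 (SE 0.137, adjusted p = 0.00759, edgeR quasi-likelihood test). It was called in a comparison where 33% of all 4093 genes tested were called, so that 1 of the 2 kinase genes passing is near the background. Eif2ak4 stood at a log2 fold change of 0.43 (SE 0.190) in the other direction and did not pass (edgeR adjusted p = 0.0861). Scaled to the summed counts of T cell genes, which moves the median of all genes by 0.15, the Eif2ak3 difference was −0.34 and did not pass (edgeR adjusted p = 0.0803), whereas that of Eif2ak4 was 0.58 and passed (edgeR adjusted p = 0.0244), where 30.9% of all genes did.

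The 2 entries of Eif2ak3 were also fitted apart. The exon 12 and 13 entry held 96, 101 and 109 counts in WT and 83, 73 and 71 in PERK-cKO allogeneic libraries, a log2 fold change of −0.61 (SE 0.169, edgeR adjusted p = 0.00613). The entry with exons 2 and 5 held 73, 66 and 64 counts in WT and 72, 67 and 50 in PERK-cKO, with a log2 fold change of −0.30 (SE 0.198) that did not pass (edgeR adjusted p = 0.280). Both pointed downward, and the difference between them was not tested.

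Marker RNA of cells other than T cells also differed between these 2 groups. The 4 placed genes of a 14-gene macrophage and monocyte list summed to 913 to 1118 CPM in PERK-cKO and 47.1 to 62.3 CPM in WT allogeneic libraries, with Lyz2 among them. The 5 placed genes of an 8-gene basophil and mast cell list summed to 1185 to 1302 CPM against 118 to 135 CPM. The 8 placed genes of a 17-gene T cell list summed to 6039 to 6635 CPM in PERK-cKO and 6988 to 7069 CPM in WT. Their part in the kinase levels was not tested. Fewer cells of a type and less RNA per cell cannot be told apart in bulk libraries.

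After polyclonal stimulation neither kinase gene passed, where 31.8% of 3937 genes tested were called. The log2 fold change of PERK-cKO over WT was −0.36 for Eif2ak3 (SE 0.190, edgeR adjusted p = 0.171) and −0.25 for Eif2ak4 (SE 0.124, edgeR adjusted p = 0.139). At unadjusted p under 0.05, 1623 of all genes tested passed. The Eif2ak3 value depended on single WT libraries, at −0.15 without WT polyclonal replicate 1 and at −0.55 without replicate 3, where it passed (edgeR adjusted p = 0.0226). Replicate 1 stands apart from the other WT polyclonal libraries, with a chi-square per degree of freedom of 54.4 and 61.4 against them, where all other pairs within a group lay between 3.88 and 16.1. Scaled to T cell genes, which moves the median of all genes by −0.33, both kinases passed, at −0.69 for Eif2ak3 (edgeR adjusted p = 0.0115) and −0.58 for Eif2ak4 (edgeR adjusted p = 0.00214), where 42.1% of all genes did.

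Between stimuli both kinases differed. In WT T cells Eif2ak4 was 2.73-fold lower after allogeneic than after polyclonal stimulation, a log2 fold change of −1.45 (SE 0.141, edgeR adjusted p = 2.33e-06). Eif2ak3 was 1.58-fold higher, a log2 fold change of 0.66 (SE 0.173, edgeR adjusted p = 0.00668). Both genes passed where 48.6% of 3985 genes did, 24.5% as higher and 24.1% as lower. Scaled to T cell genes, which moves the median of all genes by −0.50, the Eif2ak3 difference was 0.16 and did not pass (edgeR adjusted p = 0.441), and Eif2ak4 was at −1.95 and passed, where 63.6% of all genes did. Leaving out single libraries, Eif2ak3 ranged from 0.47 without WT polyclonal replicate 3 to 0.90 without replicate 1, and passed each time, and Eif2ak4 ranged from −1.502 to −1.41.

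In PERK-cKO T cells the directions were the same. Eif2ak4 was 1.68-fold lower after allogeneic stimulation, a log2 fold change of −0.75 (SE 0.150, edgeR adjusted p = 0.000370), and Eif2ak3 was 1.46-fold higher, a log2 fold change of 0.54 (SE 0.144, edgeR adjusted p = 0.00409). Both passed, where 51.4% of 4159 genes did, 27.7% as higher and 23.8% as lower. The entry with exons 2 and 5 gave 0.82 (edgeR adjusted p = 0.00545) and the exon 12 and 13 entry 0.38, which did not pass (edgeR adjusted p = 0.107).

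Markers of other cells moved with the stimulus too. The macrophage and monocyte list summed to at most 1.04 CPM in WT and 2.06 CPM in PERK-cKO polyclonal libraries, below the allogeneic values given above in both genotypes. A B cell list summed to 9.48 to 15.1 CPM in WT polyclonal and 90.1 to 118 CPM in WT allogeneic libraries, and to 11.9 to 21.6 CPM against 193 to 223 CPM in PERK-cKO. The basophil and mast cell list summed to 78.4 to 90.5 CPM in WT and 81.2 to 85.5 CPM in PERK-cKO polyclonal libraries. The T cell list stood at 4799 to 4940 CPM in WT and 6025 to 6352 CPM in PERK-cKO polyclonal libraries, lower than after allogeneic stimulation in WT and overlapping it in PERK-cKO. Their part in the stimulus differences and in the interaction was not tested.

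Whether the genotype effect differed between stimuli was tested as an interaction. For Eif2ak4 it did, with a log2 interaction of 0.67 (SE 0.198, edgeR adjusted p = 0.0112), in a fit where 33.9% of 4402 genes were called. For Eif2ak3 the interaction was −0.15 (SE 0.229) and did not pass (edgeR adjusted p = 0.670). The Eif2ak4 interaction passed with each of the 12 libraries left out in turn, from 0.65 to 0.76, the highest edgeR adjusted p being 0.0253. Scaled to T cell genes, which moves the median interaction of all genes by 0.49, it was 1.16 (edgeR adjusted p = 8.96e-05), where 40.8% of all genes were called.

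**Figure D3:**
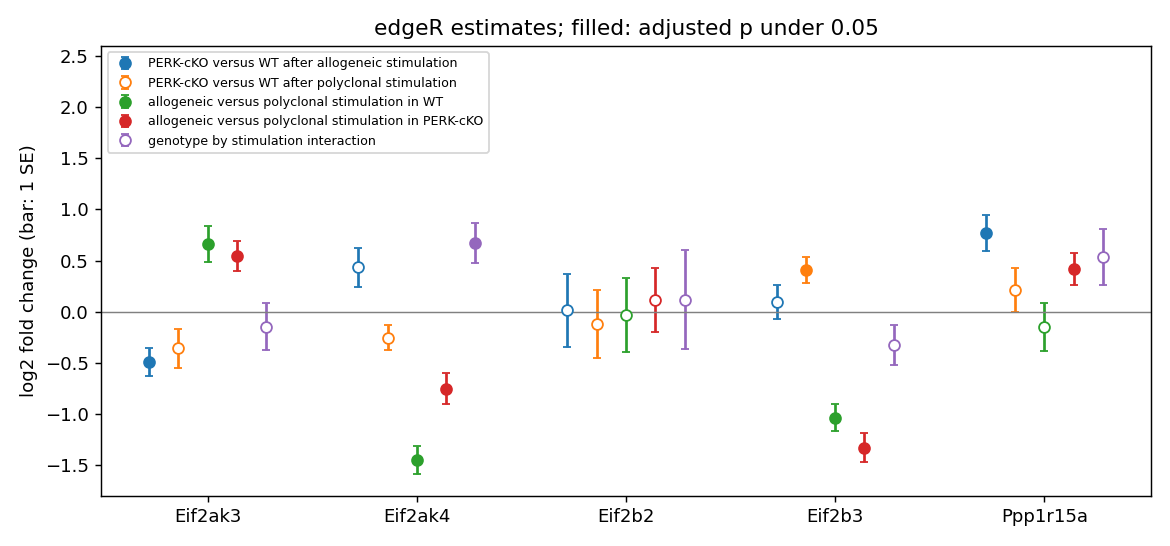
edgeR log2 fold changes (points) with 1 SE (bars) of Eif2ak3, Eif2ak4 and 3 partner genes in the 5 comparisons, filled where the adjusted p was under 0.05. Eif2ak4 and Eif2b3 are lower after allogeneic than polyclonal stimulation in both genotypes, and Eif2ak3 is higher.

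The ratio of Eif2ak4 to Eif2ak3 within a library, with counts divided by the exon bases overlaid, needs no scaling between libraries. Its values were 0.303, 0.333 and 0.378 in WT allogeneic and 0.674, 0.661 and 0.576 in PERK-cKO allogeneic libraries. They were 1.11, 1.61 and 1.88 in WT polyclonal and 1.45, 1.56 and 1.72 in PERK-cKO polyclonal libraries. The allogeneic groups did not overlap each other or either polyclonal group. How often ratios of other genes separate in this way was not counted.

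After allogeneic stimulation the ratio was 1.89-fold higher in PERK-cKO (0.637 ± 0.0534) than in WT T cells (0.338 ± 0.0377, SD, n = 3, two-sided exact permutation p = 0.1, the smallest that 3 against 3 can give). After polyclonal stimulation it was 1.57 ± 0.136 against 1.53 ± 0.391 (SD, n = 3, two-sided exact permutation p = 0.9). Allogeneic stimulation went with a 4.45-fold lower ratio in WT and a 2.47-fold lower one in PERK-cKO T cells (two-sided exact permutation p = 0.1 for each). With only the 237 bp or only the 326 bp entry of Eif2ak3, the ratio in PERK-cKO allogeneic libraries was 2.07-fold and 1.67-fold that of WT. The polyclonal libraries then lay from 0.704 to 1.43 and from 1.92 to 2.99, so which kinase reads higher per kb depends on the entry used. Between stimuli the ratio was then 4.53-fold and 4.39-fold lower after allogeneic stimulation in WT, and 2.17-fold and 3.01-fold lower in PERK-cKO T cells.

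**Figure D4:**
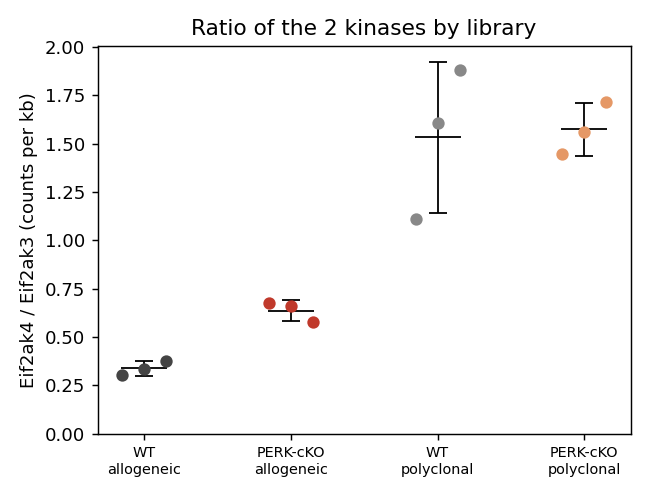
Ratio of Eif2ak4 to Eif2ak3 counts per kb of exon bases in each library, with the group mean (line) and SD (bar). The WT allogeneic libraries lie from 0.303 to 0.378, below the PERK-cKO allogeneic libraries at 0.576 to 0.674, and the 6 polyclonal libraries lie from 1.11 to 1.88.

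Over the 12 libraries the levels of Eif2ak3 and Eif2ak4, as log2(CPM + 1), had a Pearson r of −0.78, and the points share the 4 groups and the scaling. Among 2521 genes with a mean of at least 30 CPM, Sbk1 (r = 0.902), Ank (0.899) and Tecpr1 (0.891) were most like Eif2ak3. Pdgfb (0.990), Ripk2 (0.986) and Mapkapk2 (0.981) were most like Eif2ak4.

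Apart from Ppp1r15b, the remaining members were read only in entries that also covered other genes, so the values belong to the mixtures, fitted with each deposited entry as a feature of its own. Eif2s1 encodes eIF2alpha, the substrate of the kinases, and made up 96.4% of the exon bases of an entry shared with Atp6v1d. That entry held medians of 1616 and 1611 counts in WT and PERK-cKO allogeneic libraries and 1384 and 1678 in WT and PERK-cKO polyclonal libraries. None of its 4 pairwise differences passed, while the interaction was −0.42 (SE 0.148, edgeR adjusted p = 0.0366), where 29% of all entries were called.

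Eif2s2 encodes eIF2beta. It filled 99.6% of the exon bases of its entry, which also touched 2 bp of Raly, and it becomes readable when overlaps under 50 bp are left aside, a choice made after seeing the data. Its entry held 23 to 39 counts in WT allogeneic, 27 to 42 in PERK-cKO allogeneic, 44 to 60 in WT polyclonal and 45 to 51 in PERK-cKO polyclonal libraries. It was lower after allogeneic than polyclonal stimulation in WT T cells, by a log2 fold change of −0.64 (SE 0.245, edgeR adjusted p = 0.0401), where 46.6% of entries were called. In PERK-cKO T cells the value was −0.53 (edgeR adjusted p = 0.100).

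Eif2b5, the catalytic epsilon subunit, made up 65.5% of the exon bases of an entry shared with the antisense gene Gm16618. That entry was higher in PERK-cKO than WT T cells after polyclonal stimulation, at 0.40 (SE 0.0797, edgeR adjusted p = 0.00135), where 29.5% of entries were called. After allogeneic stimulation it stood at −0.23 (edgeR adjusted p = 0.0602), and the interaction was −0.60 (SE 0.118, edgeR adjusted p = 0.000354). In PERK-cKO T cells it was lower after allogeneic than polyclonal stimulation, at −0.45 (edgeR adjusted p = 0.000252), where 46.2% of entries were called.

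Eif2b1, the alpha subunit, made up 25.9% of the exon bases of an entry shared with Gtf2h3 and Tctn2. The entry was lower in PERK-cKO than WT T cells after allogeneic stimulation, at −0.58 (SE 0.193, edgeR adjusted p = 0.0248), where 28.9% of entries were called, and its interaction was −0.95 (SE 0.238, edgeR adjusted p = 0.00350), where 29% were. Between stimuli in PERK-cKO it was lower after allogeneic stimulation, at −0.77 (SE 0.174, edgeR adjusted p = 0.00103), where 46.2% of entries were called. Eif2ak1 made up 83.4% of the exon bases of an entry shared with Pms2, which passed in none of the 5 comparisons. Eif2ak2 and Eif2b4 made up 6.76% and 2.53% of the exon bases of their mixtures, too little to speak of those genes. The Eif2ak2 mixture was higher in PERK-cKO after polyclonal stimulation, at 0.29 (edgeR adjusted p = 0.0179). The Eif2b4 mixture was higher there too, at 0.30 (edgeR adjusted p = 0.00770), and in WT it was higher after allogeneic than polyclonal stimulation, at 0.45 (edgeR adjusted p = 0.000189), where 46.6% of entries were called. Of all bases of these shared entries, introns included, the exons of the named member made up from 1.28% for Eif2b4 to 47.5% for Eif2s2.

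Partners of the cycle outside the named genes could be read in part. Of 15 partners listed, 9 had at least 10 placed counts. After allogeneic stimulation 1 was higher and 2 lower in PERK-cKO among 9 tested, beside 18.5% higher and 14.5% lower of all genes. One of the 2 lower was the Y-linked Eif2s3y, which had counts in WT allogeneic libraries alone and passed the filter only through them. Without it, 1 was higher and 1 lower of 8, with a list median of −0.01 beside −0.02 for all genes. After polyclonal stimulation 2 of 8 were higher and 0 lower, with a list median of 0.08 beside 0.00129 for all genes, of which 16% were higher and 15.8% lower. Between stimuli in WT, Eif2s3y left out again, 1 was higher and 2 lower of 8 after allogeneic stimulation (list median −0.14, all genes −0.02), where 24.5% of all genes were higher and 24.1% lower. In PERK-cKO 1 was higher and 1 lower of 8 (list median −0.22, all genes 0.00286), where 27.7% were higher and 23.8% lower. In the interaction, also without Eif2s3y, 0 were higher and 1 lower of 8 (list median −0.11, all genes 0.01), where 16.7% were higher and 17.2% lower.

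Ppp1r15a, whose product brings the phosphatase to eIF2alpha, held 48, 55 and 70 placed counts in WT and 145, 103 and 91 in PERK-cKO allogeneic libraries. The log2 fold change was 0.77 (SE 0.178, edgeR adjusted p = 0.00152), where 33% of all genes were called. Only 85 of the 1472 bp of that entry, filed under the symbol U4, lay in the gene. Its other 1387 bp lay outside it, and the entry spreads over 10 chromosomes, so its counts may come from other loci. A second entry, in which Ppp1r15a made up 24.6% of the exon bases beside Tulp2, was higher by 0.85 (SE 0.146, edgeR adjusted p = 5.16e-05). After polyclonal stimulation the first entry stood at 0.21 (edgeR adjusted p = 0.482) and the second at −0.12 (edgeR adjusted p = 0.625). Between stimuli in PERK-cKO both were higher after allogeneic stimulation, the first at 0.42 (edgeR adjusted p = 0.0340) and the second at 0.88 (edgeR adjusted p = 3.24e-05). The call of the first was lost without PERK-cKO allogeneic replicate 1 or 3 and without PERK-cKO polyclonal replicate 1 or 3, at 0.34 to 0.44 (highest edgeR adjusted p = 0.132). Between stimuli in WT they stood at −0.15 (edgeR adjusted p = 0.631) and −0.100 (edgeR adjusted p = 0.628). The interaction was 0.54 for the first (edgeR adjusted p = 0.143) and 0.99 for the second (edgeR adjusted p = 0.000694).

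Eif2b3, the gamma subunit of eIF2B, was lower after allogeneic than polyclonal stimulation in its placed entries. It stood at 45.3 ± 2.72 and 48.2 ± 2.16 CPM in WT and PERK-cKO allogeneic libraries and at 90.8 ± 7.30 and 121 ± 18.4 CPM in WT and PERK-cKO polyclonal libraries (SD, n = 3 each). The log2 fold change of allogeneic over polyclonal was −1.04 in WT (edgeR adjusted p = 2.70e-05) and −1.33 in PERK-cKO T cells (edgeR adjusted p = 3.47e-07). After polyclonal stimulation it was higher in PERK-cKO by 0.41 (SE 0.125, edgeR adjusted p = 0.0207), a call lost without WT polyclonal replicate 1 (0.32) or PERK-cKO polyclonal replicate 1 (0.25), with DESeq2 (adjusted p = 0.0532) and with T cell scaling (0.08, edgeR adjusted p = 0.635). Of its placed counts, 1708 came from an entry with 225 of 4363 bp in Eif2b3 exons and 67 from another, while one more entry, with 255 exon bases, held 0. The first of these has 849 bp outside the gene. The second has 464 of 812 bp outside it and spreads over 3 chromosomes. Eif2b2, the beta subunit, lay near 11 CPM in every group and passed in no comparison. Its entry has 135 of 2903 bp in Eif2b2 exons and 1595 bp outside the gene.

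**Figure D5:**
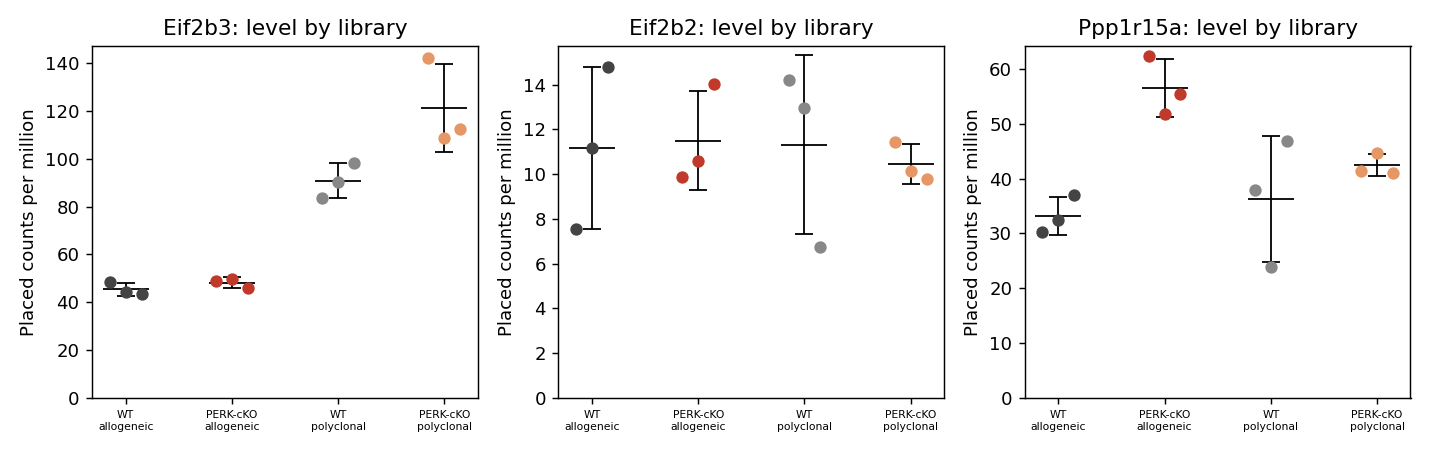
Levels of Eif2b3, Eif2b2 and Ppp1r15a in placed CPM for each library, with the group mean (line) and SD (bar). All polyclonal libraries of Eif2b3 lie above its allogeneic libraries, and the PERK-cKO allogeneic libraries are the highest for Ppp1r15a.

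Ppp1cb, a catalytic subunit of the phosphatase, was lower in PERK-cKO after allogeneic stimulation by a log2 fold change of −0.46 (edgeR adjusted p = 0.0164). Eif5, which triggers GTP hydrolysis on eIF2, was higher in PERK-cKO after polyclonal stimulation by 0.40 (edgeR adjusted p = 0.00254), with an interaction of −0.60 (edgeR adjusted p = 0.00183), and higher after allogeneic than polyclonal stimulation in WT by 0.36 (edgeR adjusted p = 0.00516). Abcf1, an eIF2-binding factor, was lower after allogeneic stimulation in WT by a log2 fold change of −1.21 (edgeR adjusted p = 0.0167). Gcn1l1, whose product helps to activate GCN2, was the 1 readable gene of 14 kinase regulators. It was higher in PERK-cKO after polyclonal stimulation by 0.53 (edgeR adjusted p = 0.000215) and stood at −0.11 after allogeneic stimulation (edgeR adjusted p = 0.422), with an interaction of −0.65 (edgeR adjusted p = 0.000312).

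The Y-linked Eif2s3y, which encodes a form of eIF2gamma, held 883, 1008 and 1311 counts in WT T cells stimulated with allogeneic cells and none in the 9 libraries of the remaining groups. The labels give no sex of the mice, and a difference in sex between WT allogeneic and the other groups cannot be told apart from genotype and stimulus in any comparison that uses WT allogeneic libraries. These are the libraries in which Eif2ak3 was highest and Eif2ak4 lowest.

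Among 12 of 35 other initiation factors that could be read, 1 was higher and 4 lower of 10 tested in PERK-cKO after allogeneic stimulation, beside 18.5% and 14.5% of all genes. After polyclonal stimulation 4 were higher and 0 lower of 10, beside 16% and 15.8%. Between stimuli, 2 were higher and 4 lower of 11 after allogeneic stimulation in WT, beside 24.5% and 24.1% of all genes, and 0 higher and 8 lower of 10 in PERK-cKO, beside 27.7% and 23.8%. In the interaction 0 were higher and 7 lower of 11, where 16.7% of all genes were higher and 17.2% lower, led by Eif3b (−1.06, edgeR adjusted p = 4.89e-05), a subunit of eIF3. Of 30 interferon-inducible genes, the class to which Eif2ak2 is known to belong, 8 could be read, and 6 of these were higher in PERK-cKO after allogeneic stimulation, where 18.5% of all genes were, Oasl2 by 2.44 (edgeR adjusted p = 1.82e-13). After polyclonal stimulation 2 were higher and 1 lower of 7, beside 16% and 15.8%. After allogeneic against polyclonal stimulation 6 were higher and 1 lower of 8 in WT, beside 24.5% and 24.1%, and 8 of 8 were higher in PERK-cKO, beside 27.7%. In the interaction 6 were higher and 0 lower of 8, beside 16.7% and 17.2%. Oas2 was among the higher genes between stimuli (3.59 in WT, 5.97 in PERK-cKO) and in the interaction (2.35). It did not pass the count filter in the fit of the polyclonal groups. Those 3 counts therefore include a gene that entered only through allogeneic libraries, where it is high.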

How the data were processed

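Total RNA of 12 libraries of stimulated splenic T cells was sequenced. The deposited table holds raw read counts per entry, which the authors made with featureCounts 2.0.1 on the GENCODE M27 annotation, per the file headers, while the labels name the build mm10. M27 describes a later build, so an entry's symbol need not name the gene beneath it. Each entry's printed positions were laid on GRCm38 exons (GENCODE M21), small RNAs aside. Of 53762 entries, 13386 lay over exactly 1 gene by at least 50 bp, with 50.4% of counts, and 33927 lay over no exon, with 1.79%. Library totals were 3132702 to 4631908 counts, and placed totals 1568431 to 2327503.

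Groups came from the labels. Placed counts per gene were tested with edgeR 4.0.16 (filterByExpr, TMM, quasi-likelihood test, Benjamini-Hochberg over all genes tested, threshold 0.05) in R 4.3.3, using the 2 groups of each pairwise comparison and all 12 libraries for the interaction. The fits were tested on simulated data. Ratios were tested by exact permutation in Python. Alternatives were DESeq2, other scalings, filters and overlaps, a replicate block and leaving out each library.

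Members and gene lists were chosen with earlier results of these data known. Named genes were the members, list genes with an adjusted p under 0.05 (by smallest p) and the 3 genes most correlated with each kinase; Eif2b2 and the shared entries were added after their values were seen. Of the marker lists, 2 of 2 B cell genes tested were higher in PERK-cKO than WT allogeneic libraries and 1 of 1 erythroid gene was lower, beside 18.5% higher and 14.5% lower of all genes. The 1 dendritic cell gene tested passed the filter only through the PERK-cKO allogeneic libraries, where it is high, and no NK cell gene could be tested. One shared entry is not reported here.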

Additional observations from a re-analysis of the deposited data

Results flagged for a closer look

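The difference in Eif2ak4 between PERK-cKO and WT libraries was not the same under the 2 stimuli by the interaction test. Only WT allogeneic libraries held counts of the Y-linked Eif2s3y, so a difference in sex of that group cannot be told apart from this interaction. Marker RNA of other cells also differed between the allogeneic groups, and its part was not tested. The log2 interaction was 0.67 (edgeR adjusted p = 0.0112), where 33.9% of all genes were called. PERK-cKO over WT stood at 0.43 after allogeneic and −0.25 after polyclonal stimulation, and neither passed in the fit of its own 2 groups. In the fit of all 12 libraries the allogeneic value was 0.43 and passed (edgeR adjusted p = 0.0334), where 32.1% of all genes did. Scaled to T cell genes the interaction was 1.16, where 40.8% of all genes were called. Both values then passed, at 0.58 (edgeR adjusted p = 0.0244) and −0.58 (edgeR adjusted p = 0.00214), where 30.9% and 42.1% of all genes did. In CPM, PERK-cKO libraries lay above all WT libraries after allogeneic stimulation and below all of them after polyclonal stimulation. The share of all genes that separate in this way was not counted.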

How the results depend on the processing

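Of 180 kinase values under an alternative, 171 kept their direction and their side of the threshold. In 1 fit over all 12 libraries 2 kinase genes passed after allogeneic stimulation, where 32.1% of all genes did. With T cell scaling 2 passed after polyclonal stimulation and 1 between stimuli in WT, where 42.1% and 63.6% of all genes did. Leaving out 1 library gave 0 to 1 after polyclonal stimulation. T cell scaling moved the median of all genes by 0.49 in the interaction, where it turned Eif2ak3 to 0.35 and Eif2b3 to 0.17, and it turned Ppp1r15a after polyclonal stimulation to −0.115. The causes were not tested.

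Leaving out 1 library moved the Eif2ak3 interaction between −0.393 and 0.0353. Ppp1r15a ranged from −0.0171 to 0.440 after polyclonal stimulation and from −0.388 to 0.0737 between stimuli in WT. In 10 other settings that WT value ranged from −0.649 to −0.117 and passed in 1. The interaction of Ppp1r15a ranged from 0.306 to 0.807 without single libraries and passed in 1 of 12 fits. In 9 other settings it ranged from 0.530 to 1.03 and passed in 1. Its PERK-cKO call between stimuli held in 5 of 10 other settings and 2 of 6 fits without 1 library (highest adjusted p = 0.132). Low counts limit Eif2b2, which was −0.00904 after allogeneic stimulation with no filter. Without single libraries it ranged from −0.201 to 0.274 after allogeneic and −0.389 to 0.0404 after polyclonal stimulation, from −0.301 to 0.187 between stimuli in WT and −0.0283 to 0.219 in PERK-cKO, and from −0.0791 to 0.376 in the interaction.

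Same-numbered libraries did not deviate together (correlations −0.0981 to 0.0980). The sources do not say whether the numbers pair samples, and this check cannot exclude that they do. A fit with the replicate block called 1, 0, 2, 2 and 1 kinase genes in the 5 comparisons, the same numbers as without it, with Eif2ak3 at −0.49 after allogeneic stimulation. Requiring 50% of an entry inside exons left no kinase gene to test.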
